A study of Mus musculus with 9 samples.

Results

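Fibro-adipogenic progenitors are the mesenchymal progenitor cells that lie between the fibres of skeletal muscle. They were followed here through 8 marker genes, Pdgfra, Cd55, Gsn, Cd34, Ly6a, Clec3b, Dpt and Mfap5. These were chosen by name as markers of mesenchymal progenitors and interstitial fibroblasts. The markers, and the gene lists used below, were chosen with earlier results of these data known. All 8 were in the deposited table, among 15593 gene symbols, and all 8 passed the filter on low values. The RNA came from gastrocnemius, the large calf muscle, with 3 libraries in each of 3 groups. The groups were vehicle-treated wildtype mice, vehicle-treated mdx mice, and mdx mice that received 10 mg/kg GTx-026 subcutaneously, the treated group in what follows. All groups carry the strain label C57BL/6. The mdx mouse lacks full-length dystrophin and models Duchenne muscular dystrophy. GTx-026 was studied, by the title of the series, as an androgen receptor agonist. The sources used here do not give age, sex or length of treatment. No label ties a library to an animal, so each p-value reflects the spread among libraries, which may be technical.

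Fibro-adipogenic progenitors respond to muscle injury by dividing and by secreting signals and matrix that help muscle stem cells rebuild fibres, and they are then cleared. In chronically damaged muscle they persist and can give rise to matrix-producing fibroblasts and to fat cells. Of the markers at the cell surface, Pdgfra is a receptor tyrosine kinase for platelet-derived growth factors and the usual gene by which these cells are recognised. Ly6a (Sca-1) and Cd34 are surface proteins used to sort them, both of which endothelial cells also carry, and Cd55 is a membrane-anchored inhibitor of complement. Clec3b encodes tetranectin, a secreted plasminogen-binding lectin. Dpt encodes dermatopontin and Mfap5 a microfibril-associated glycoprotein, both of the extracellular matrix. Gsn encodes gelsolin, which severs and caps actin filaments and is made by many cell types.

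In the GENCODE M21 annotation (GRCm38) Pdgfra lies on chromosome 5 from 75152292 to 75198215, Cd55 on chromosome 1 from 130439027 to 130462744, Cd34 on chromosome 1 from 194938819 to 194961279 and Ly6a on chromosome 15 from 74994877 to 74998031. Clec3b lies on chromosome 9 from 123150946 to 123157432, Dpt on chromosome 1 from 164796644 to 164824266, Mfap5 on chromosome 6 from 122505845 to 122529290 and Gsn on chromosome 2 from 35256380 to 35307892. The table lists 8 sequence records for Gsn, 6 for Ly6a, 5 each for Pdgfra and Cd55, 2 each for Cd34 and Mfap5, and 1 each for Clec3b and Dpt. Records of 1 gene may count the same reads, which was not tested, so their agreement is no independent support. A level summed over records may then count a read more than 1 time. Reads of Ly6a are the least secure. Of its 50-base transcript words 19% occurred in other genes, with 15% in its neighbour Ly6c1 alone. Cd55 shared 8% of its words with its paralog Cd55b, which the table lists as Daf2 at a mean of 0.777 CPM in wildtype. CPM are reads per M listed reads (M, mega) after rescaling of each library. The other 6 markers shared at most 0.447%. Exons of Pdgfra, Cd55 and Cd34 overlap antisense transcripts over 456, 102 and 148 bases, and whether counting used strand was not stated.

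Pdgfra is the marker that passed the test, and Cd55 varied against the other markers after the group means were taken out. Dpt is a matrix marker, chosen because its promoter differs from both in its motifs. Promoter sequences are shown for these 3 markers. They are RefSeq windows of build GRCm38.p6 from 250 bases before to 50 bases after the annotated start, for Pdgfra at chr5:75152001-75152300 on the plus strand, for Cd55 at chr1:130462695-130462994 on the minus strand and for Dpt at chr1:164796413-164796712 on the plus strand. Capitals mark matches, on either strand, to the TATA box TATAAA, the CCAAT box CCAAT, the GC box GGGCGG, the AP-1 site TGANTCA, the E-box CANNTG and the steroid receptor hexamer AGAACA.
Pdgfra: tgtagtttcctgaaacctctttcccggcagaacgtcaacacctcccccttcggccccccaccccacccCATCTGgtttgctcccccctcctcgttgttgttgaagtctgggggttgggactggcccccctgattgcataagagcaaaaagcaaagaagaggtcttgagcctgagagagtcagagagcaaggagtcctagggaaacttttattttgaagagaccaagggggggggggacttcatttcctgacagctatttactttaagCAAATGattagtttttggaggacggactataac
Cd55: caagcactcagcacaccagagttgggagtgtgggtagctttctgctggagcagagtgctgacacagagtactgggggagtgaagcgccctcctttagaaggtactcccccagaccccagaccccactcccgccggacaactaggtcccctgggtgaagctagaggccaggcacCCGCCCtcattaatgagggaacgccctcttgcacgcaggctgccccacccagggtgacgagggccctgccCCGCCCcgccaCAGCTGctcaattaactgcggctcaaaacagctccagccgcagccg
Dpt: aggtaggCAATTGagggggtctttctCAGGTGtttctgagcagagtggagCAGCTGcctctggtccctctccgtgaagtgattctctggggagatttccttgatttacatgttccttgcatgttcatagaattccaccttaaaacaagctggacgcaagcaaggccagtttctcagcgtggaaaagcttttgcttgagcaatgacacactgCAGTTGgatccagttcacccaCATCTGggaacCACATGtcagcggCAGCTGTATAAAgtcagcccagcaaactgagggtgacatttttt
The Pdgfra window holds 2 E-boxes and no other of these motifs. That of Cd55 holds 2 GC boxes and 1 E-box, at a GC content of 63.3% against a median of 52.7% over 32851 promoters. That of Dpt, at 48.7% GC, holds 7 E-boxes and, directly after the last of them, a match to the TATA box. This match begins at base 13 after the annotated start, so it does not lie upstream of the start. Over all these promoters 72.3% hold an E-box, 35.7% a GC box, 13.6% a TATA box, 37.4% a CCAAT box, 7.81% an AP-1 site and 19% the hexamer, so matches of this kind are common. Of the 8 markers 5 had a promoter in this set.

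The libraries held an estimated 25.1 M to 38 M listed reads. Myofibre genes dominated all of them, with the 8 myofibre markers summing to 112675 to 207951 CPM, against 709 to 2044 CPM for the 8 progenitor markers. Dmd, the gene mutated in mdx mice, lay between 41.4 and 60.03 CPM in wildtype vehicle and between 11.4 and 21.7 CPM in the mdx libraries. The mdx mutation is a premature stop, so the level bears on the labels only indirectly. The mdx vehicle library 1 stood apart. Across genes, which are no replicates of each other, its median correlation with its own group was 0.945 against 0.959 to 0.983 for the other 8. In the same library the summed level of slow-fibre genes was the lowest of all 9. That of macrophage markers was the highest, with Gpnmb alone at 422 of 931 CPM. In bulk tissue of this kind a change in the number of progenitor cells and a change in RNA per cell cannot be told apart.

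Most progenitor markers had their highest mean in treated mdx muscle. In mdx GTx-026 against wildtype vehicle all 8 had a positive log2 fold change (on the log2(CPM + 1) scale throughout), as did 50.4% of all genes, with a median of 0.74, and Pdgfra rose. Thus 1 of 8 markers passed the threshold, an adjusted p under 0.05 from limma's moderated linear model, in the upward direction, where 161 of 15372 genes did (1.05%), and 6 of 8 showed no overlap between the groups, where 11.5% of all genes were higher without overlap. An unadjusted p under 0.05 was found in 5 of 8, and in 7.44% of all genes in that direction. In mdx vehicle against wildtype vehicle 6 of 8 were higher (51.1% of all genes), with a median of 0.38. Here 0 passed (limma, Benjamini-Hochberg adjustment over all genes, where 0.189% passed upward), while Pdgfra and Cd55 had an unadjusted p under 0.05, as did 6.34% of all genes in that direction. These 2 markers were higher without overlap, as were 7.97% of all genes. With the deposited scaling Gsn and Ly6a turned positive in this comparison, at 0.13 and 0.10. Both lay below the median of all genes under that scaling, 0.15. In mdx GTx-026 against mdx vehicle 7 of 8 were higher (51.1% of all genes), with a median of 0.42. Again 0 passed by limma (0.013% of all genes passed upward), and Gsn had an unadjusted p under 0.05, as did 1.97% of all genes. Gsn and Ly6a were higher without overlap, as were 3.67% of all genes. The median over all tested genes lay between 0.00177 and 0.00875 in the 3 comparisons. Each pair of comparisons shares a group of libraries, so the 3 results are not independent of each other. Comparing treated mdx with wildtype changes genotype and drug together, so their parts in it cannot be told apart.

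**Figure D1:**
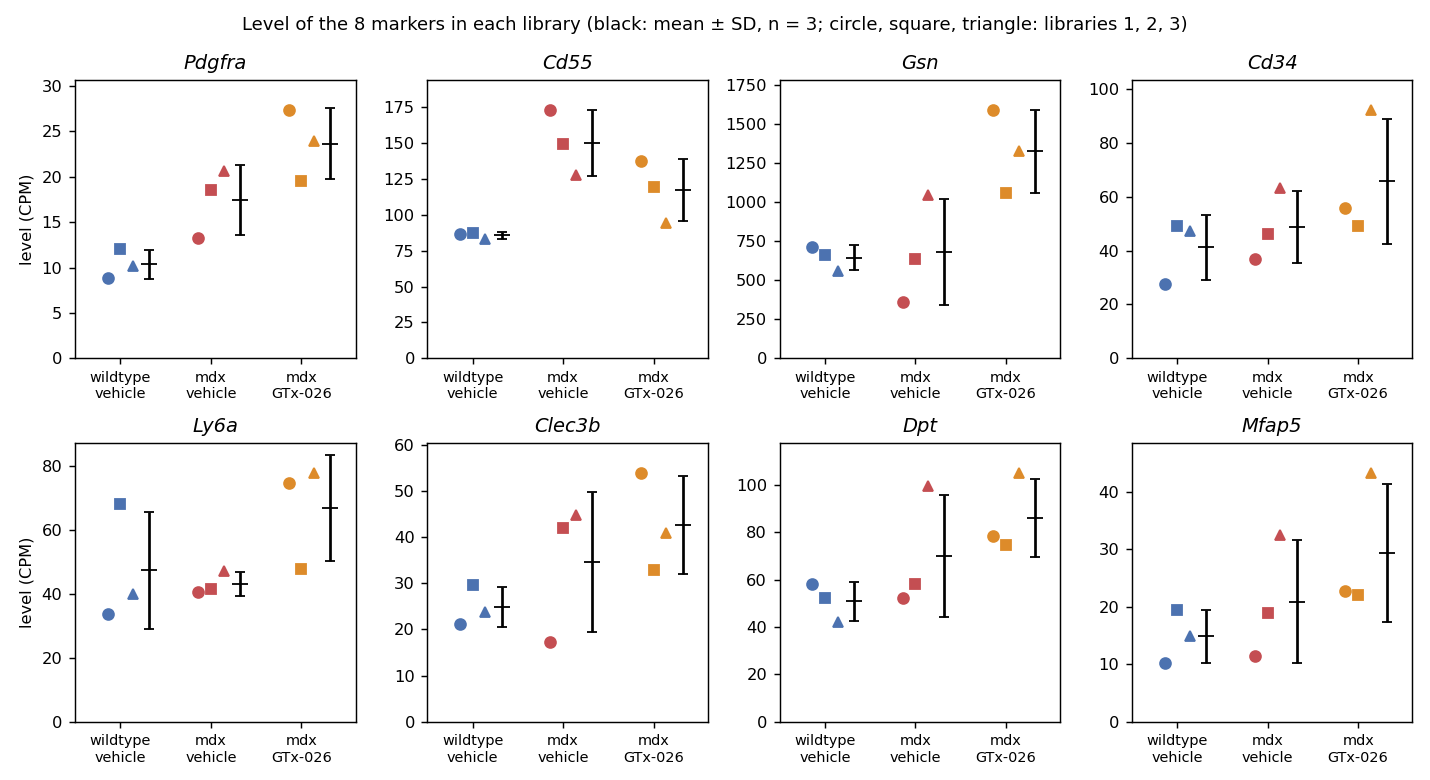
Level in CPM of the 8 markers in each of the 9 libraries, by group, with the mean and SD (n = 3) in black and symbols for libraries 1, 2 and 3. Pdgfra lies between 8.83 and 12.1 CPM in wildtype and between 19.6 and 27.4 CPM in treated mdx, and the mean of Cd55 is highest in mdx vehicle.

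Pdgfra, the growth factor receptor, was at 8.83, 12.1 and 10.2 CPM in wildtype vehicle libraries 1 to 3. The mdx vehicle libraries held 13.2, 18.5 and 20.6 CPM and the treated ones 27.4, 19.6 and 24.0 CPM. Every mdx library lay above every wildtype library, while the highest mdx vehicle library lay above the lowest treated one. The group means were 10.4 ± 1.62 CPM for wildtype, 17.4 ± 3.81 CPM for mdx vehicle and 23.6 ± 3.92 CPM for treated mdx (SD, n = 3). In mdx GTx-026 against wildtype vehicle Pdgfra rose by a log2 fold change of 1.11 (SE 0.20, limma adjusted p = 0.0310). In mdx vehicle against wildtype vehicle the log2 fold change was 0.69 (95% interval 0.24 to 1.14, limma adjusted p = 0.236), and with GTx-026 against mdx vehicle it was 0.43 (95% interval −0.02 to 0.88, limma adjusted p = 0.9996). The call against wildtype rested on all the libraries it compared. Without any single wildtype vehicle or mdx GTx-026 library the log2 fold change stayed between 1.01 and 1.24 but the limma adjusted p ran from 0.0603 to 0.132, and leaving out a library also leaves fewer values to estimate the spread. Without any single mdx vehicle library, and under the other 9 alternatives, Pdgfra passed. Its 5 records, which may share reads, were all higher, with ratios of group means between 1.93 and 2.74 for mdx GTx-026 over wildtype vehicle. In the authors' deposited table the unadjusted p-values of these records for wildtype against treated ran from 0.000108 to 0.0201. Those for wildtype against mdx vehicle ran from 0.000862 to 0.0154, and those for mdx vehicle against treated from 0.00226 to 0.559. Among the other markers no record was under 0.05 for wildtype against mdx vehicle, where Cd55 ran from 0.0528 to 0.268. For wildtype against treated the records of Gsn, Clec3b and Cd55 were, apart from 1 of Cd55 at 0.219. For mdx vehicle against treated only those of Gsn were, from 0.0371 to 0.0467.

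Cd55, the complement inhibitor, took a different course. Wildtype libraries 1 to 3 held 86.4, 87.3 and 83.0 CPM, those of mdx vehicle 173, 149 and 128 CPM and the treated ones 137, 119 and 94.5 CPM. Both mdx groups lay wholly above wildtype, and the lowest mdx vehicle library lay below the highest treated one. Against wildtype vehicle the log2 fold change was 0.79 in mdx vehicle (SE 0.17, 95% interval 0.42 to 1.17, limma adjusted p = 0.113) and 0.43 in mdx GTx-026 (95% interval 0.06 to 0.80, limma adjusted p = 0.311). With GTx-026 against mdx vehicle it was −0.36 (95% interval −0.73 to 0.01, limma adjusted p = 0.9996), the only negative value among the 8 markers in that comparison. Without a filter on low values, Cd55 passed in mdx vehicle against wildtype vehicle (limma adjusted p = 0.0426). The 5 Cd55 records, which may share reads, had mdx vehicle over wildtype ratios of 1.68 to 1.82 and treated over mdx vehicle ratios of 0.733 to 0.848.

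The sorting markers Cd34 and Ly6a had small log2 fold changes with wide intervals in mdx vehicle against wildtype. For Cd34 the wildtype libraries held 27.4, 49.2 and 47.1 CPM, those of mdx vehicle 36.9, 46.3 and 63.1 CPM and the treated ones 55.9, 49.2 and 92.3 CPM. Its groups overlapped in all 3 comparisons, with log2 fold changes of 0.25 (95% interval −0.43 to 0.92) in mdx vehicle and 0.65 (−0.02 to 1.33) in mdx GTx-026 against wildtype vehicle. For Ly6a the wildtype libraries held 33.9, 68.3 and 40.01 CPM, those of mdx vehicle 40.6, 41.4 and 47.3 CPM and the treated ones 74.8, 47.7 and 77.9 CPM. All treated libraries lay above all mdx vehicle libraries, by a margin of less than 1 CPM at the nearest pair, and the log2 fold change was 0.59 (95% interval −0.004 to 1.19, limma adjusted p = 0.9996). The wildtype libraries spanned the mdx vehicle group, while treated libraries 1 and 3 lay above all of them, and the log2 fold change of mdx vehicle against wildtype was −0.07 (95% interval −0.67 to 0.52). Ly6c1, with which Ly6a shares words, was at 44.8 ± 5.57, 41.7 ± 16.9 and 66.9 ± 14.4 CPM in wildtype vehicle, mdx vehicle and mdx GTx-026 (SD, n = 3), and its log2 fold change with GTx-026 against mdx vehicle was 0.74 (limma adjusted p = 0.9996).

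The 3 secreted and matrix markers had their highest group means in treated muscle. Clec3b stood at 21.2, 29.7 and 23.8 CPM in the wildtype libraries, at 17.2, 41.9 and 44.9 CPM in those of mdx vehicle and at 53.9, 32.8 and 41.03 CPM in the treated ones. The mdx vehicle library 1 was the lowest of all 9. Dpt stood at 58.2, 52.1 and 41.97 CPM in wildtype, at 52.3, 57.99 and 99.6 CPM in mdx vehicle and at 78.3, 74.5 and 104.97 CPM after treatment. Mfap5 stood at 10.2, 19.5 and 14.9 CPM in wildtype, at 11.4, 18.9 and 32.5 CPM in mdx vehicle and at 22.7, 22.1 and 43.3 CPM after treatment. For both, library 3 stood above the others in each mdx group. All treated libraries lay above all wildtype libraries for these 3 genes, with log2 fold changes of 0.74 for Clec3b (95% interval −0.02 to 1.49), 0.74 for Dpt (0.19 to 1.30) and 0.91 for Mfap5 (0.04 to 1.78), and none passed (limma adjusted p = 0.415, 0.230 and 0.370). In mdx vehicle against wildtype vehicle the groups overlapped for all 3, and the log2 fold changes were 0.36, 0.41 and 0.39. For Clec3b the log2 fold change with GTx-026 against mdx vehicle was 0.37, and −0.05 without mdx vehicle library 1.

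Gsn, the actin regulator, had the highest summed level of the 8, also per length. It was at 205 CPM for every kb (kilobase) of annotated exon in wildtype vehicle, where Ly6a was at 39.3, Dpt at 29.4 and Pdgfra, the lowest, at 1.03. These sums take 8 records for Gsn, 6 for Ly6a and 5 for Pdgfra but 1 for Dpt. Where records count the same reads, the order per length may differ, which was not tested. The level of Gsn was 712, 664 and 561 CPM in the wildtype libraries. It was 364, 636 and 1044 CPM in those of mdx vehicle and 1593, 1058 and 1326 CPM in the treated ones. The mdx vehicle libraries lay on both sides of wildtype, while all treated libraries lay above all others. With GTx-026 against mdx vehicle the log2 fold change was 1.07 (SE 0.35, 95% interval 0.29 to 1.85, limma adjusted p = 0.9996), and it was 0.68 without mdx vehicle library 1. Against wildtype vehicle it was 1.02 in mdx GTx-026 (limma adjusted p = 0.235) and −0.05 in mdx vehicle (95% interval −0.82 to 0.73). In a fit of the compared groups only, the difference between treated and wildtype passed (limma adjusted p = 0.0499). The 8 Gsn records, which may share reads, held 12.3% to 13.2% of the gene's level each. They had ratios of 1.91 to 1.98 for treated over mdx vehicle.

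**Figure D2:**
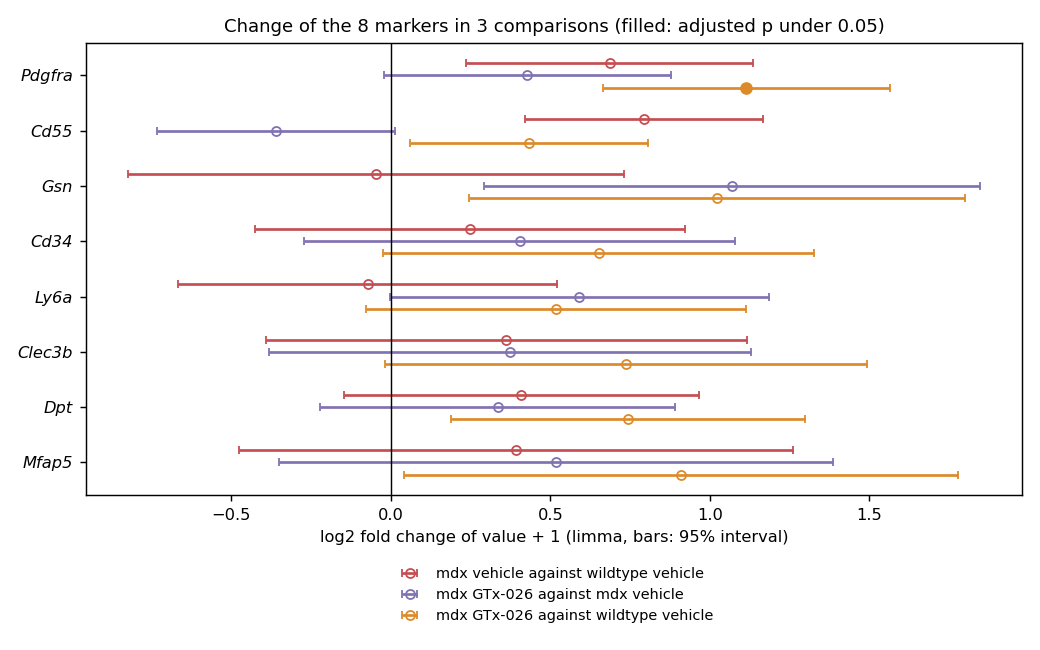
Log2 fold change of each marker, on the log2(value + 1) scale, in the 3 comparisons, with 95% intervals from limma (n = 3 libraries a group). The filled point, Pdgfra in mdx GTx-026 against wildtype vehicle at 1.11, is the only one that passed, and Cd55 at −0.36 is the only marker below 0 with GTx-026 against mdx vehicle.

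Single libraries weighed on the size of these shifts. The median of the 8 log2 fold changes in mdx vehicle against wildtype vehicle was 0.64 without mdx vehicle library 1 and 0.09 without mdx vehicle library 3, and 0.21 without wildtype vehicle library 1. With GTx-026 against mdx vehicle it was 0.20 without mdx vehicle library 1 and 0.61 without mdx vehicle library 3. In mdx GTx-026 against wildtype vehicle it lay between 0.60 and 0.87 when any library was left out, and all 8 markers stayed higher in each of these fits. Summed over the 8 markers, wildtype libraries held 958, 983 and 822 CPM, those of mdx vehicle 709, 1010 and 1479 CPM and the treated ones 2044, 1424 and 1804 CPM, with Gsn as the largest part in each. In mdx vehicle 7 of the 8 were lowest in library 1 and 7 were highest in library 3, and the exception in both was Cd55. In mdx GTx-026 7 of 8 were lowest in library 2, and the exception was again Cd55, which was lowest in library 3.

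Apart from Cd55 the markers varied together from library to library. Over the 9 libraries the Pearson correlation of log2 values was positive in 24 of 28 marker pairs, with a median of 0.70 and a highest value of 0.96 for Cd34 with Mfap5. After the group means were taken out it was positive in 21 of 28 pairs, with a median of 0.52. The highest were 0.95 for Pdgfra with Clec3b, 0.94 for Cd34 with Mfap5 and 0.86 for Gsn with Clec3b. All 7 negative pairs were those of Cd55, from −0.16 with Ly6a to −0.83 with Mfap5. These are descriptions of 9 libraries that share their groups and their scaling.

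**Figure D3:**
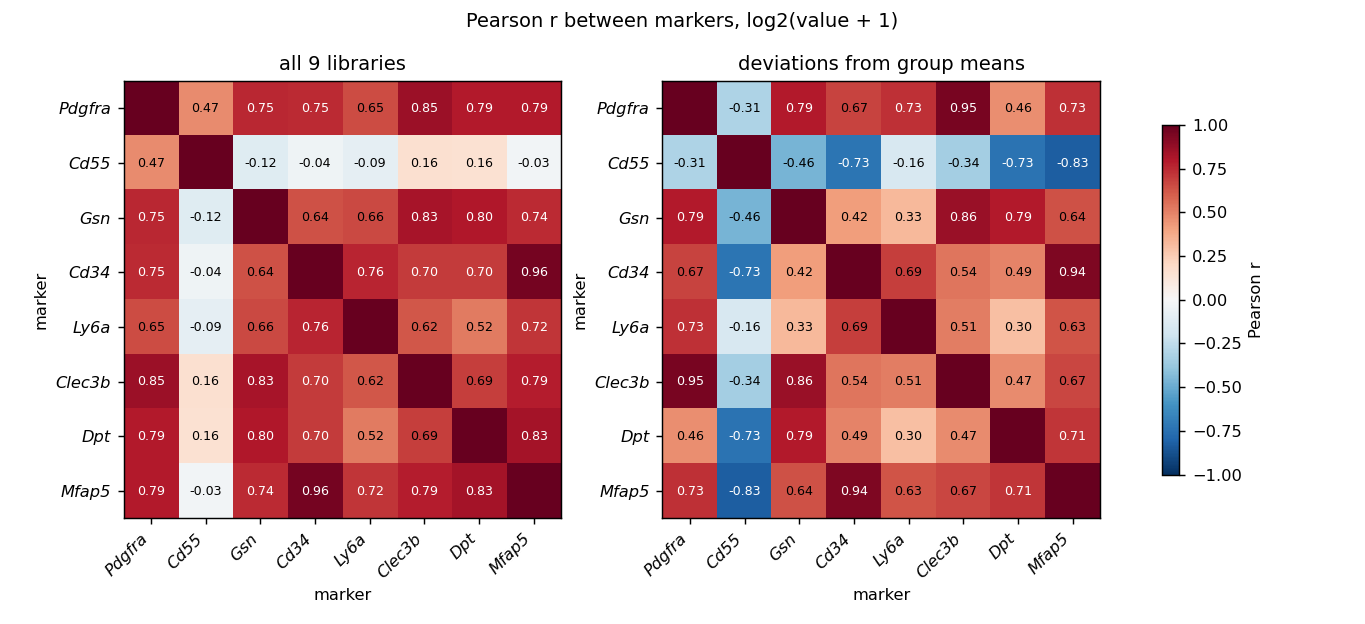
Pearson correlation of log2(value + 1) between the 8 markers over all 9 libraries (left) and after subtracting each group's mean (right), coloured from −1 to 1. The row of Cd55 lies between −0.12 and 0.16 on the left, apart from 0.47 with Pdgfra, and is negative throughout on the right, and the other markers are positive with each other in both panels.

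Of 10335 other genes at 5 CPM or more, those whose log2 values followed the mean of the 8 standardised markers most closely over the 9 libraries were Hectd3 (Pearson r = 0.985), the lysyl oxidase family gene Loxl1 (0.983), Flot1 (0.976), the basement membrane gene Nid1 (0.974), Figf, which encodes the growth factor VEGF-D (0.971), and the chemerin receptor gene Cmklr1 (0.969). After the group means were taken out the correlations of these 6 genes were 0.911 to 0.987. They come from the same 9 libraries by which the 6 genes were picked, so they are no independent support. For Pdgfra alone the closest were Bmp1, a protease that matures procollagens (0.987), the anion exchanger gene Slc4a3 (0.971) and Hectd3 (0.970).

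Other markers of progenitors and interstitial fibroblasts were also mostly higher in treated mdx muscle. Of 28 listed genes 26 were tested, and 25 had a positive log2 fold change in mdx GTx-026 against wildtype vehicle, with a median of 0.46, against 50.4% positive among all genes. By limma 3 rose and 0 fell, and 10 were higher and 1 lower at an unadjusted p under 0.05. Over all genes 1.05% rose and 7.44% were higher at that unadjusted p. The chemokine gene Cxcl14 stood at 25.4, 28.4 and 34.7 CPM in wildtype, at 57.1, 69.1 and 89.4 CPM in mdx vehicle and at 137, 68.4 and 127 CPM after treatment. Both mdx groups thus lay above wildtype, as for 7.97% of all genes in mdx vehicle and 11.5% in treated mdx. In treated muscle the log2 value of Cxcl14 rose by 1.83 against wildtype (SE 0.27, limma adjusted p = 0.0144). Hsd11b1, which encodes the enzyme that reactivates glucocorticoids, averaged 4.97 ± 1.57 CPM in wildtype, 7.32 ± 2.14 CPM in mdx vehicle and 12.7 ± 1.08 CPM after treatment (SD, n = 3). Its log2 value rose by 1.23 against wildtype (limma adjusted p = 0.0382). Wisp2, a matricellular gene of the CCN family, stood at 0.970, 0.752 and 1.02 CPM in wildtype and at 3.78, 2.53 and 7.99 CPM after treatment, and its log2 value rose by 1.48 (limma adjusted p = 0.0392). All treated libraries lay above all mdx vehicle libraries for Hsd11b1 and Wisp2, as for 3.67% of all genes. The log2 fold changes were 0.75 and 1.19 (limma adjusted p = 0.9996 and 0.876). Both genes were named for passing against wildtype with the same treated libraries, so this is no independent support.

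These 3 calls, like that of Pdgfra, each rested on several single libraries. Cxcl14 no longer passed when either of wildtype libraries 2 and 3, or either of treated libraries 1 and 3, was left out (limma adjusted p up to 0.0669). That of Hsd11b1 was lost on leaving out wildtype library 2 or 3, mdx vehicle library 3 or any treated library (up to 0.161), and with the deposited scaling or the highest record alone. That of Wisp2 was lost on leaving out any wildtype library, mdx vehicle library 2 or 3 or treated library 1 (up to 0.141), and with a pseudocount of 5 or the compared groups only. In mdx vehicle against wildtype vehicle 20 of the 26 genes were higher, with a median of 0.30, and by limma 0 passed, with 4 higher at an unadjusted p under 0.05. Over all genes 51.1% were higher, and 6.34% at that unadjusted p. With the deposited scaling Cxcl14 passed in that comparison, at a log2 fold change of 1.41 (limma adjusted p = 0.0399). The proteoglycan gene Lum averaged 22.3 ± 3.73 CPM in wildtype, 46.0 ± 17.5 CPM in mdx vehicle and 33.3 ± 8.13 CPM after treatment (SD, n = 3). Its mean, like that of Cd55, was highest in mdx vehicle. With GTx-026 against mdx vehicle 20 of 26 were higher, with a median of 0.19, and by limma 0 passed, with 4 higher at an unadjusted p under 0.05. The shares over all genes there were 51.1% and 1.97%.

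**Figure D4:**
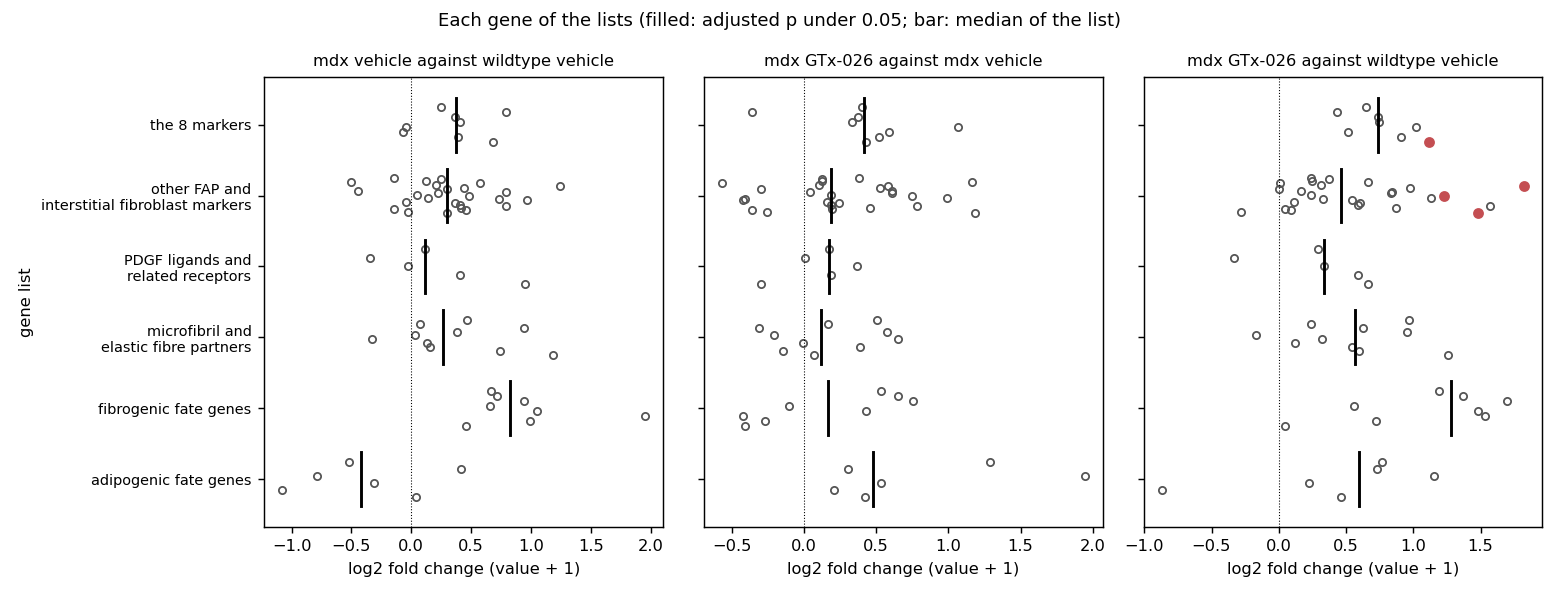
Log2 fold change, on the log2(value + 1) scale, of every tested gene of the 8 markers and 5 related lists in the 3 comparisons, with the median of each list as a bar and genes past the threshold filled. In mdx GTx-026 against wildtype vehicle the medians are 0.74 for the 8 markers, 0.46 for the other progenitor markers and 1.28 for the fibrogenic genes.

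None of the tested ligand genes of the receptor passed the test. Of the PDGF ligands and related receptors 5 of 6 were tested and by limma 0 passed in any comparison, with 1 at an unadjusted p under 0.05 in each comparison with wildtype and 0 in the other. Over all genes 6.34% and 7.44% were higher at that p in mdx vehicle and treated mdx against wildtype. The ligand gene Pdgfa averaged 53.1 ± 7.03, 57.3 ± 1.40 and 65.2 ± 9.04 CPM in wildtype, mdx vehicle and treated mdx (SD, n = 3). The ligand gene Pdgfb was at 32.9 ± 9.49, 25.5 ± 6.11 and 25.5 ± 5.02 CPM. Pdgfrb, the related receptor of pericytes and fibroblasts, was at 27.2 ± 4.89, 36.5 ± 8.19 and 41.2 ± 4.71 CPM, with a log2 fold change of 0.59 in mdx GTx-026 against wildtype vehicle (limma adjusted p = 0.208).

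Genes of matrix formed by these cells were mostly higher in both mdx groups than in wildtype, though none passed. In a fit of the compared groups only, and without mdx vehicle library 3, Postn passed in treated mdx against wildtype (limma adjusted p = 0.0370 and 0.0378). Of the microfibril and elastic fibre genes that surround Mfap5, 9 of 10 were higher in mdx vehicle and 9 of 10 in mdx GTx-026 against wildtype vehicle, with medians of 0.27 and 0.57 and with 2 and 4 genes at an unadjusted limma p under 0.05. In mdx vehicle these genes summed to 122, 177 and 337 CPM in libraries 1 to 3, against 126 to 202 CPM in wildtype, so only library 3 lay above the wildtype range. Mfap4, another microfibril-associated gene, was at 6.90 ± 4.13, 18.7 ± 16.3 and 17.05 ± 9.26 CPM in the 3 groups (SD, n = 3), and Fbln1 at 4.46 ± 1.47, 9.37 ± 2.29 and 7.71 ± 3.70 CPM. Of the fibrogenic genes all 8 tested were higher in mdx vehicle, with a median of 0.83, and all 8 in mdx GTx-026, with a median of 1.28, and 4 and 5 had an unadjusted limma p under 0.05. For both lists the shares over all genes were 51.1% and 50.4% higher, and 6.34% and 7.44% higher at that p. The fibrogenic genes summed to 343 to 504 CPM in wildtype and to 550, 545 and 1614 CPM in mdx vehicle libraries 1 to 3, again highest in library 3. Postn, which encodes the matricellular protein periostin, averaged 14.9 ± 3.22 CPM in wildtype, 77.9 ± 72.4 CPM in mdx vehicle and 46.8 ± 18.2 CPM after treatment (SD, n = 3), with 161 CPM in mdx vehicle library 3 against 37.5 and 34.8 CPM in libraries 1 and 2. Lox, the collagen crosslinking enzyme gene, was at 3.93 ± 1.19, 9.44 ± 3.49 and 13.6 ± 7.31 CPM. With GTx-026 against mdx vehicle 4 of these 8 genes were higher and 4 lower.

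Markers of other cell types moved between the same libraries. The tendon list, of which 7 of 8 genes were tested, with Kera not among them, had a median difference of 1.32 from the wildtype mean in mdx vehicle library 3 and 1.19 in mdx GTx-026 library 3, the libraries highest in Dpt, Mfap5 and Cd34, and −1.13 in wildtype vehicle library 1, the lowest in Mfap5 and Cd34. Dpt did not follow the tendon list within wildtype, at 58.2 CPM in library 1 and 41.97 CPM in library 3, where the list stood at 0.73. The summed level of the tendon list ran from 41.9 to 259 CPM in wildtype, from 118 to 476 CPM in mdx vehicle and from 163 to 366 CPM after treatment. The macrophage list, with 11 of 12 genes tested, summed to 39.0 to 99.2, 116.5 to 931 and 309 to 446 CPM in the 3 groups, and of its genes Lgals3 rose in mdx vehicle and Lgals3 and C1qc in treated mdx against wildtype (limma adjusted p = 0.0336, 0.0161 and 0.0463), both named here after their values were seen. The library with the highest sum, mdx vehicle library 1, was the lowest of its group in every progenitor marker except Cd55, in which it was highest. Gpnmb alone gave 422 CPM of that sum. By the median difference from the wildtype mean the macrophage list stood higher in mdx vehicle library 3, at 2.12 against 1.71 in library 1. Library 3 was the highest of its group in every progenitor marker except Cd55. The endothelial list, whose cells also carry Cd34 and Ly6a, summed to 269 to 455, 230 to 350 and 241 to 415 CPM. All 12 of its genes were lower in mdx vehicle and 10 lower in mdx GTx-026 than in wildtype, where 51.1% and 50.4% of all genes were higher. The slow-fibre list lay between −3.05 in mdx vehicle library 1 and 1.93 in mdx GTx-026 library 3. The smooth muscle and pericyte list, with 6 of 7 genes tested, summed to 146 to 231, 122 to 325 and 181 to 284 CPM, the Schwann cell list to 54.5 to 86.2, 25.5 to 66.1 and 35.4 to 68.9 CPM, and the satellite cell list, with 5 of 6 tested, to 122 to 161, 98.7 to 219 and 171 to 195 CPM. Of the skin list only Krt10 was tested, at no more than 5.00 CPM, and of the lymphoid list only Cd52, at 110 CPM in mdx vehicle library 1 and no more than 37.8 CPM elsewhere. The part of these cell types in the differences of the 8 markers was not tested.

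**Figure D5:**
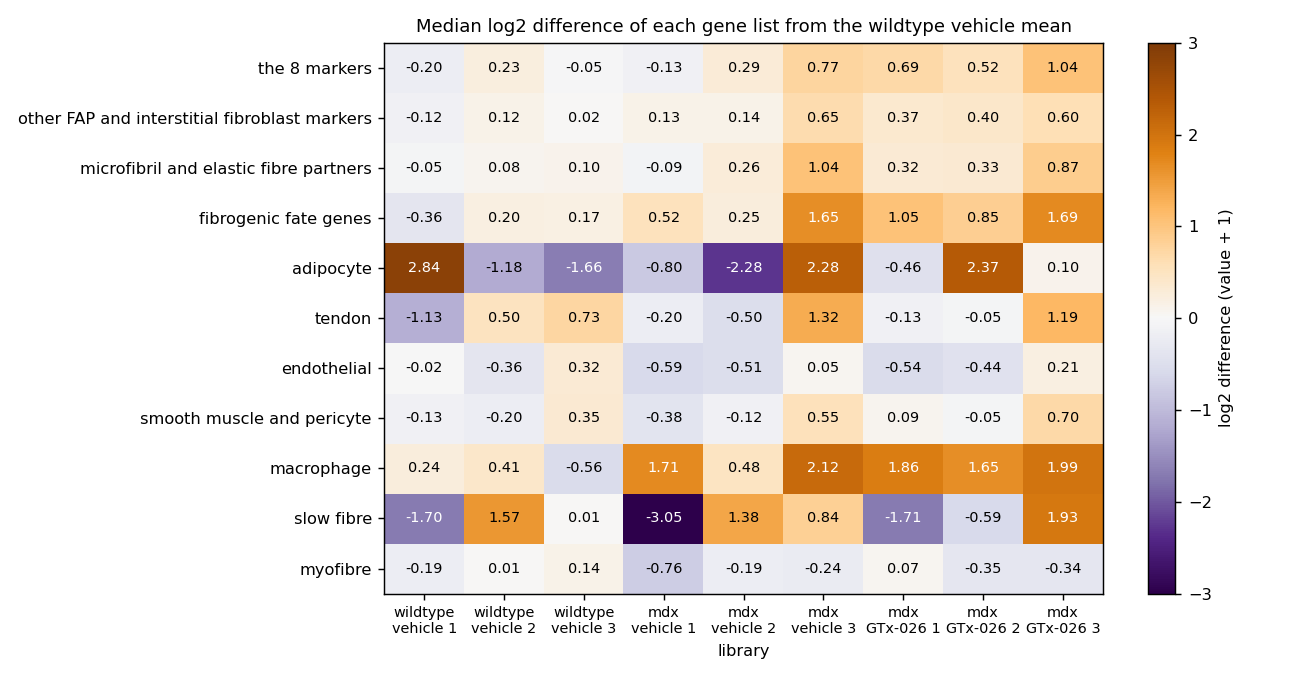
Median log2 difference from the wildtype vehicle mean, on the log2(value + 1) scale, of the 8 markers and of 10 other gene lists in each library. The 8 markers run from −0.20 to 0.23 in wildtype vehicle, −0.13 to 0.77 in mdx vehicle and 0.52 to 1.04 in mdx GTx-026, while the slow-fibre and adipocyte lists vary widely within every group.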

How the data were processed

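Polyadenylated RNA of gastrocnemius was sequenced on an Ion Torrent Proton, per the labels' protocols. The build GRCm38.p3 and the tools HTSeq 0.6.1p1, TopHat2 2.0.13, Bowtie2 2.2.4, DESeq2 1.6.3 and SAMtools 0.1.19 are listed, per the submitters' processing notes, without their roles. The deposited signal is scaled reads for each of 46442 sequence records. Below 10000, 100% of values were whole multiples of 1 step per library (tolerance 0.1 read), which gave the estimate of listed reads. This recovery was not accepted as counts, so no count test was run. The table also holds the authors' mean signal per group, the authors' ratio of means and the authors' unadjusted p-value for each pair of groups. Columns name a group and a number, so each was assigned to its group only, and the number pairs nothing. Tests were planned for scaled values.

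Records above 0 in all 9 libraries were summed by symbol, which gave 15372 tested genes. The 4 records without a symbol (0.000646% of the total) were left out. Values were rescaled by an unweighted trimmed mean of log ratios (30% and 5% trimmed) to CPM and tested as log2(CPM + 1) with limma 3.58.1 in R 4.3.3, trended prior, all 3 groups in 1 fit (residual df 6, prior df 3.54). Two-sided p-values were Benjamini-Hochberg adjusted over all tested genes of a comparison, threshold 0.05. Log2(value + 1) understates changes of low genes. The estimate of 25.1 M to 38 M listed reads sums all records, which may count the same read, so it need not be the sequenced depth. The counting error of low genes follows the reads that are distinct, whose number is not known here. Promoters and GENCODE M21 lengths and words came from reference tables of GRCm38, and no coordinate of the deposited table was used. The markers and lists were chosen with earlier results of these data known. All 8 markers are named. Of each pathway list at most 4 genes are named, those past the threshold in any comparison and then those with the largest difference in mdx vehicle against wildtype vehicle at 5 CPM or more. Closest genes are those with the highest Pearson r. The alternatives were other scalings, pseudocounts and filters, the highest record alone, fits of the compared groups, no trend, and each library left out.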

Additional observations from a re-analysis of the deposited data

How the results depend on the processing

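Over 18 alternatives the 57 log2 fold changes of the 8 markers and 11 other named genes kept their direction and their side of the threshold in 978 of 1026 values. Some alternatives, such as leaving out a library of the group not compared, cannot move a log2 fold change, so part of this agreement was fixed beforehand. In 26 values a call was lost and in 5 a call was gained. The lost calls were those of Pdgfra (6 of 18 alternatives), Cxcl14 (4), Hsd11b1 (8) and Wisp2 (8), all in mdx GTx-026 against wildtype vehicle. Direction changed in 17, of genes that had not passed. No value that had passed changed direction. With the deposited scaling, which moved the median of all genes to 0.15 in mdx vehicle against wildtype vehicle, Gsn was at 0.13 and Ly6a at 0.10 in that comparison, and Pdgfb at −0.053 with GTx-026 against mdx vehicle. Pdgfb was at −0.0088 with median-of-ratios scaling and −0.0499 with the highest record alone, where Pdgfa was at −0.017 in mdx vehicle against wildtype vehicle. When 1 library was left out, log2 fold changes in mdx vehicle against wildtype vehicle ran from −0.42 to 0.34 for Gsn, −0.015 to 0.43 for Cd34 and −0.28 to 0.22 for Ly6a. With GTx-026 against mdx vehicle they ran from −0.055 to 0.61 for Clec3b, −0.19 to 0.15 for Pdgfb, −0.41 to 0.71 for Mfap4 and −0.80 to 0.29 for Postn.

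The number of the 8 markers that passed in mdx vehicle against wildtype vehicle was 1 without a filter (Cd55) and 0 otherwise. In mdx GTx-026 against wildtype vehicle it was 2 in a fit of the compared groups only and 0 to 1 when 1 library was left out. The count over all genes was 52 in mdx vehicle against wildtype vehicle, 332 without a filter, 5 with the compared groups only and 5 to 93 with 1 library left out. It was 2 with GTx-026 against mdx vehicle, 4 with the deposited scaling, 1 with a pseudocount of 5, 96 without a filter, 1 with the compared groups only and 0 to 2 with 1 library left out. It was 227 in mdx GTx-026 against wildtype vehicle, 509 without a filter, 421 with the compared groups only and 45 to 368 with 1 library left out. Leaving out a library also leaves fewer samples, and the other causes were not tested. No paired analysis was possible because neither the labels nor the columns give a number shared by animals across groups.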

Other observations

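Genes tied to fat cells, the other fate of fibro-adipogenic progenitors, varied widely within each group. The 6 tested adipogenic genes summed to 606 to 2351 CPM in wildtype vehicle, 305 to 1200.01 CPM in mdx vehicle and 347 to 1386 CPM in mdx GTx-026, and 0 passed by limma in any comparison, with 0 at an unadjusted p under 0.05. Most of the lowest wildtype sum, that of library 2, was Lpl at 494 CPM, named here after its values were seen. The adipocyte list summed to only 32.5 CPM in that library, so the low sums are no measure of fat cells. The adipocyte list of 4 tested genes, which shares 3 of them, lay at a median log2 difference from the wildtype mean of 2.84 in wildtype vehicle library 1, 2.28 in mdx vehicle library 3 and 2.37 in mdx GTx-026 library 2, and at −2.28 in mdx vehicle library 2. Of these 4 libraries only mdx vehicle library 3 was the highest of its group in most of the 8 progenitor markers.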
